A study of Mus musculus with 12 samples.

Results

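Interferon-stimulated genes are the genes that a cell turns on when an interferon reaches its receptors. Here 44 mouse genes were listed by symbol, chosen with earlier results of these data known: antiviral effectors, the transcription factors that drive the response, sensors of foreign nucleic acids, interferon-inducible GTPases and other effectors. A gene was measured by the probe sets annotated with its symbol alone, and by the brightest of them over all arrays where there were several. Of the 44 genes, 39 had such a probe set, among 19937 genes measured on the arrays. Isg15, Gbp2, Gbp6 and Igtp shared their probe sets with another gene symbol, and no probe set carried the symbol Ifi44, so these 5 genes were not analysed here. As background, type I interferons bind the receptor of Ifnar1 and Ifnar2, whose kinases activate Stat proteins, and these join Irf9 and bind the interferon-stimulated response element (ISRE) of target genes. Interferon gamma acts through Ifngr1 and Ifngr2 and a Stat dimer, which binds the gamma-activated site (GAS). Cells keep a low tonic level of the response without infection, and in bone marrow it acts on endothelium, on bone-forming cells and on blood cell formation.

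Long bones of female NOD SCID mice, with or without bone tumors, gave 2 sorted cell populations; the strain lacks mature T and B lymphocytes and keeps myeloid cells. The 4 groups were endothelial cells of tumor-bearing mice, endothelial cells of tumor-free mice, osteoblasts of tumor-bearing mice and osteoblasts of tumor-free mice, with 3 arrays each. In the tumor-bearing groups 200000 cells of MDA-MB-231 scp1833, a human breast cancer subline, were injected into the heart about 2 weeks before, and tumors formed in the bones. Both populations were sorted as negative for GFP, TR119 and CD45, endothelial cells as SCA1+ and CD31+, and osteoblasts as SCA1-, CD31- and CD51+. Arrays of a group are biological replicates per the labels. The mouse age and the number of mice behind an array are not stated in the labels, and the p-values thus rest on the spread among these arrays. Values are log2 expression, and the median over all probe sets lay between 5.21 and 5.41 on each array. A level is compared only for the same gene between groups, and since these are bulk samples, fewer cells of a type and less RNA per cell cannot be told apart.

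Each sort carried the markers of its label. The mean log2 level of 10 endothelial markers was 10.0 to 10.2 on the endothelial arrays and 4.95 to 5.90 on the osteoblast arrays. The mean of 8 osteoblast markers was 5.92 to 6.38 on the endothelial arrays and 8.71 to 10.0 on the osteoblast arrays. The osteoblast arrays stood apart from each other in genes of blood cells. The mean log2 level of 21 hematopoietic, monocyte and neutrophil markers was 5.20, 5.58 and 5.36 in tumor-bearing and 5.31, 4.99 and 5.37 in tumor-free endothelial cells. It was 6.66, 6.43 and 5.05 in tumor-bearing and 5.37, 7.87 and 7.39 in tumor-free osteoblasts, so replicate 3 of the tumor-bearing and replicate 1 of the tumor-free osteoblasts lay near the endothelial arrays. Ptprc, which encodes the CD45 that the sort excluded, followed the same order within each osteoblast group, at 7.03, 6.87 and 4.70 in tumor-bearing and 4.92, 8.46 and 6.41 in tumor-free mice. Other blood cell markers did not all follow this order. The mean of 4 B cell markers did, and those of megakaryocyte and of T and NK cell markers did not. The mean of 3 megakaryocyte markers was 6.46, 6.22 and 7.48 in tumor-bearing and 5.62, 6.01 and 6.78 in tumor-free osteoblasts. The erythroid gene Klf1, too dim to be tested, was highest in replicate 3 of tumor-bearing (6.07) and replicate 1 of tumor-free osteoblasts (5.35).

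Promoters are shown for 5 genes that stand for the kinds of element found and for the results below: Irf1 and Isg20 with a GAS, Irgm1 and Ifit1 with ISREs, and Bst2 with both. Each is the RefSeq sequence from 250 bases before to 50 bases after the start site in the GRCm38.p6 build, 5′ to 3′ on the gene's strand, with the motifs in capitals.
Irf1 (chr11:53769764-53770063, plus strand, GAS 90 bases upstream): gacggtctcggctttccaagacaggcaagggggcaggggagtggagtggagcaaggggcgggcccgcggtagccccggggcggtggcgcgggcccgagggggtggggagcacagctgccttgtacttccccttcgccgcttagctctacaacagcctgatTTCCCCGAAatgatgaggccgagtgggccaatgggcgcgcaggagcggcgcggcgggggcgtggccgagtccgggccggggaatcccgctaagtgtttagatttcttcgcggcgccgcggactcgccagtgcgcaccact
Isg20 (chr7:78913174-78913473, plus strand, GAS 73 bases upstream): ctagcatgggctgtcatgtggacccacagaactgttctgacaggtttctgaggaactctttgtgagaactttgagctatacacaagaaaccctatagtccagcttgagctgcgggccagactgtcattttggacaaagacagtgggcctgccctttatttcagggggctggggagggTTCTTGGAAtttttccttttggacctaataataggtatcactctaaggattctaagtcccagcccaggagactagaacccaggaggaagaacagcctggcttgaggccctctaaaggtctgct
Irgm1 (chr11:48871371-48871670, minus strand, overlapping ISREs 30 and 24 bases upstream): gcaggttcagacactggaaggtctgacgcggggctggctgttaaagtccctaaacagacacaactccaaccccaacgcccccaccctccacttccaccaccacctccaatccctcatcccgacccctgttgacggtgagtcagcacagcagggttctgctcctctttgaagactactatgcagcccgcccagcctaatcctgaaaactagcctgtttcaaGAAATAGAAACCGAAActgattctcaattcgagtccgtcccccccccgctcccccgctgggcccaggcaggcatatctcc
Bst2 (chr8:71537423-71537722, minus strand, GAS 136 bases upstream that overlaps ISREs 130 and 124 bases upstream): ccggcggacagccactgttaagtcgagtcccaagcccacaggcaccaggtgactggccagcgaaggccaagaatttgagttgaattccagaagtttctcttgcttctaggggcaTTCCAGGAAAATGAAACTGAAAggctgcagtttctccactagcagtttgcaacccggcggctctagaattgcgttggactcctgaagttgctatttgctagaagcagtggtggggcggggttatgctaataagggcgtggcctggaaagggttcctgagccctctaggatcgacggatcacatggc
Ifit1 (chr19:34640639-34640938, plus strand, ISREs on the opposite strand 104 and 85 bases upstream): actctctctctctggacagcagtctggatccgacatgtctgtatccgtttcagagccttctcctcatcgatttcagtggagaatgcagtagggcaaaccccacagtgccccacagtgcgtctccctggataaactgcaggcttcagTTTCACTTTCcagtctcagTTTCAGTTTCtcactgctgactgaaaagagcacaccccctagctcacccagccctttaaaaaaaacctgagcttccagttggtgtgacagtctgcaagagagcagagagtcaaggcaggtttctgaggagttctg
The ISRE was searched on both strands as GAAA, any 2 bases and GAAA again, and the GAS as TTC, any 3 bases and GAA, which reads the same on both strands. Of the 39 measured genes, 29 had a promoter in the table, and 13 of these (44.8%) held the ISRE letters: Ifit1, Ifit3, Oas1a, Oas3, Rsad2, Stat2, Ifih1, Ddx58, Gbp3, Irgm1, Trim30a, Bst2 and Eif2ak2. Over all 27025 genes with a promoter in the table the share was 3.99%. The GAS letters stood in the promoters of 9 of the 29 (31%), Ifit2, Isg20, Oas1a, Irf1, Irf8, Ifi35, Bst2, Eif2ak2 and Adar, against 9.55% of all genes. A match describes these letters only, and no match says that the letters are not in this window.

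Endothelial cells had higher log2 levels of most interferon-stimulated genes than osteoblasts, in mice with and without tumors. In tumor-bearing mice, 18 of the 36 genes that could be tested were higher in endothelial cells and 1, Isg20, was lower, at an adjusted p under 0.05 (limma, Benjamini-Hochberg over 12430 genes). Of all genes tested, 14.9% were called in this comparison, 8.13% higher and 6.79% lower. Mx2, among the 18, was tested only because its level was high in tumor-bearing endothelial cells, so its call adds no support. In tumor-free mice 17 genes were higher and 1, Oas2, was lower, where 18.2% of all genes tested were called higher and 12.7% lower. The genes called higher in both were Irf8, Irf9, Ddx58, Irgm1, Iigp1, Xaf1, Parp9, Parp14, Trim25, Bst2 and Eif2ak2, which are 11 genes, or 61.1% of the tumor-bearing calls and 64.7% of the tumor-free calls. The count of 19 calls in tumor-bearing mice fell to 10 without replicate 1 and to 9 without replicate 3 of tumor-bearing endothelial cells, and the count of 18 in tumor-free mice stayed between 13 and 20 with any 1 array left out.

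Over all 39 measured genes the endothelial mean was higher in 37 in tumor-bearing mice, with a median log2 difference of 1.09, and in 34 in tumor-free mice, with a median of 1.14. The median over all measured genes was −0.02 in tumor-bearing and −0.21 in tumor-free mice. In tumor-bearing mice all endothelial arrays lay above all osteoblast arrays for 26 of 36 genes (19.5% of all genes tested) and below for 1 (16.3%). In tumor-free mice this held for 24 genes above (23.1%) and for 2, Oas2 and Oasl1, below (24.2%). Mx2 is among the 26, with the same limit from the filter on low values. The 3 genes not tested, Mx1, Oas3 and Cmpk2, were above the array median on fewer than 3 arrays. Of the 21 hematopoietic marker genes 17 were tested. In tumor-bearing mice 1 was called higher in endothelial cells (8.13% of all genes tested) and 0 were lower (6.79%). In tumor-free mice 1 was higher (18.2%) and 8 were lower (12.7%). The gene higher in both was Cd14, a lipopolysaccharide receptor of monocytes, by 2.08 ± 0.44 (adjusted p = 0.00745) in tumor-bearing and 1.65 ± 0.44 (adjusted p = 0.0176) in tumor-free mice. Ordered by group mean, tumor-bearing endothelial cells were the highest of the 4 groups for 30 of the 39 genes and tumor-free osteoblasts the lowest for 25.

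**Figure D1:**
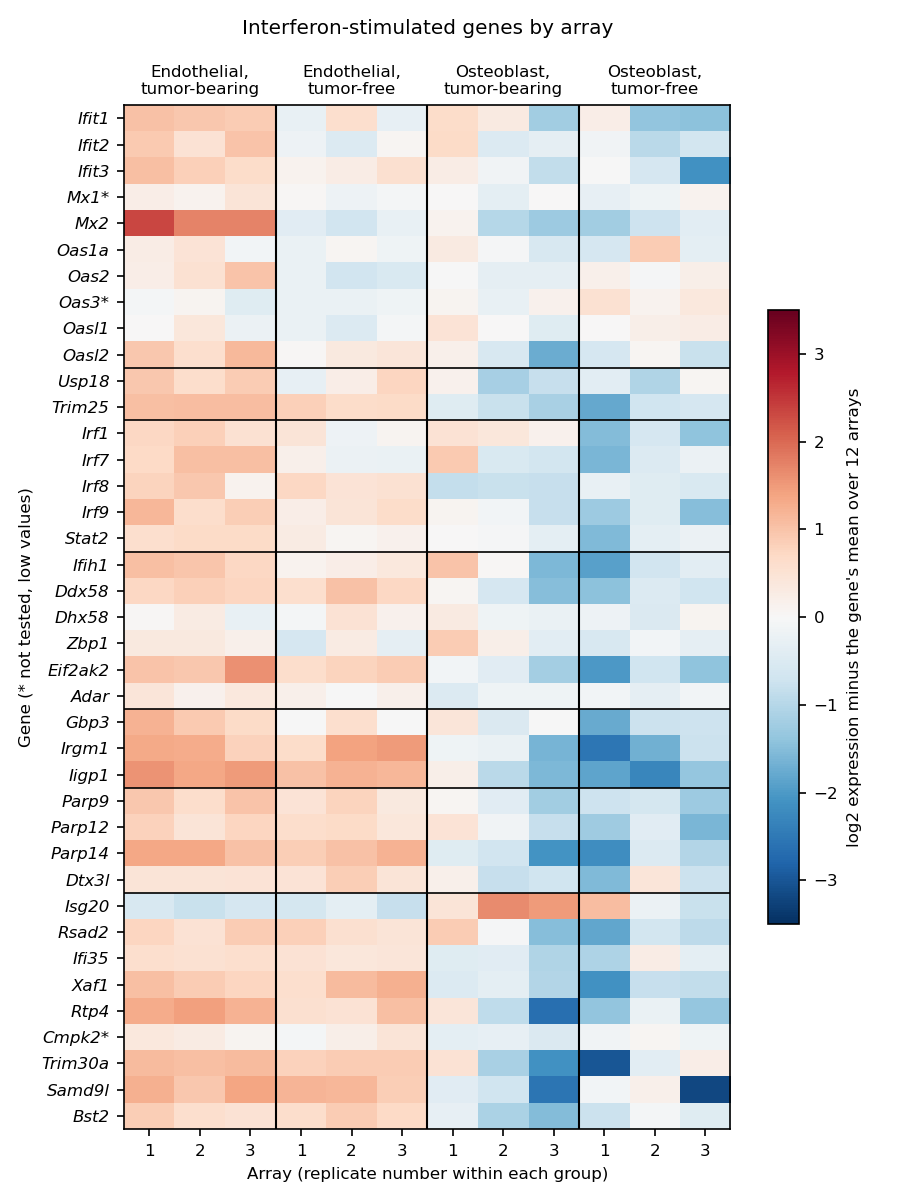
Log2 expression of the 39 measured interferon-stimulated genes on the 12 arrays, as the difference from each gene's mean over all arrays (color), with genes in rows by role and the 4 groups in columns. The endothelial columns are above the gene mean for most rows, Isg20 shows the opposite, and the osteoblast columns differ among replicates.

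Among the oligoadenylate synthetases, Ifit proteins and Mx GTPases, which bind viral RNA, activate RNase L or trap viral particles, 3 of the 8 genes tested were higher in endothelial cells in tumor-bearing mice (8.13% of all genes tested) and 0 were higher in tumor-free mice (18.2%). Mx2, a dynamin-like GTPase, measured 7.13, 6.54 and 6.55 in tumor-bearing and 4.41, 4.14 and 4.55 in tumor-free endothelial cells, against 4.92, 3.81 and 3.53 in tumor-bearing and 3.58, 4.08 and 4.43 in tumor-free osteoblasts. Only the 3 tumor-bearing endothelial arrays stood apart, and Mx2 passed the filter on low values through these 3 arrays alone. Its place among the 3 genes called in tumor-bearing mice thus adds no support. Its log2 difference between endothelial cells and osteoblasts was 2.65 ± 0.35 (SE; adjusted p = 0.00036) in tumor-bearing and 0.34 ± 0.35 in tumor-free mice. Oas2, an oligoadenylate synthetase, measured 5.92, 6.24 and 6.70 in tumor-bearing and 5.47, 5.03 and 5.16 in tumor-free endothelial cells, against 5.69, 5.38 and 5.39 in tumor-bearing and 5.87, 5.67 and 5.90 in tumor-free osteoblasts. Tumor-bearing endothelial cells were the highest group and tumor-free endothelial cells the lowest, with no overlap between the cell types in either state. The difference was 0.80 ± 0.21 (adjusted p = 0.0228) in tumor-bearing mice and -0.59 ± 0.21 (adjusted p = 0.0482) in tumor-free mice. The tumor-free call held under 3 of the 11 other settings in which Oas2 was tested, with median centring and quantile normalization among those that lost it, and with 3 of 12 single arrays left out (adjusted p up to 0.149), those being replicates 1 and 3 of tumor-bearing and replicate 1 of tumor-free endothelial cells. The tumor-bearing call was lost with blocks by tumor state and without replicate 2 or 3 of either tumor-bearing group (adjusted p up to 0.0863). Oasl2, an oligoadenylate synthetase-like protein, measured 7.77, 7.41 and 7.98 in tumor-bearing and 6.87, 7.19 and 7.25 in tumor-free endothelial cells, against 7.01, 6.29 and 5.10 in tumor-bearing and 6.24, 6.90 and 6.05 in tumor-free osteoblasts, and its difference was 1.59 ± 0.41 (adjusted p = 0.0221) in tumor-bearing and 0.70 ± 0.41 in tumor-free mice. The Oasl2 call was lost without replicate 2 of tumor-bearing osteoblasts and without replicate 1 or 3 of tumor-bearing endothelial cells (adjusted p up to 0.0866). Without any 1 of the 3 tumor-bearing endothelial arrays Mx2 was not tested.

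The other antiviral effectors did not pass the test between cell types or were too dim to be tested. Ifit1 averaged 7.39 ± 0.07 in tumor-bearing and 6.46 ± 0.49 in tumor-free endothelial cells, against 6.35 ± 1.00 and 5.58 ± 0.94 in osteoblasts of tumor-bearing and tumor-free mice (SD, n = 3 each). Ifit3 averaged 9.49 ± 0.20 and 8.96 ± 0.22 in endothelial cells of tumor-bearing and tumor-free mice and 8.40 ± 0.57 and 7.74 ± 1.08 in the matching osteoblasts. Ifit2 measured 7.75, 7.36 and 7.83 in tumor-bearing and 6.66, 6.38 and 6.92 in tumor-free endothelial cells, against 7.52, 6.35 and 6.52 in tumor-bearing and 6.73, 5.89 and 6.19 in tumor-free osteoblasts, and the tumor-bearing osteoblast value of replicate 1 lay within the endothelial range. Oas1a and Oasl1, which in mice restrains production of Irf7, had group means in a narrow range, from 6.01 ± 0.44 to 6.32 ± 0.28 for Oas1a and from 6.01 ± 0.20 to 6.42 ± 0.13 for Oasl1. Mx1 averaged 3.32 ± 0.16 and 2.98 ± 0.11 in endothelial cells of tumor-bearing and tumor-free mice, and 2.95 ± 0.20 and 2.95 ± 0.21 in osteoblasts, all below the array median. Oas3 averaged 4.97 ± 0.26 and 4.90 ± 0.04 in endothelial cells, and 5.11 ± 0.23 and 5.46 ± 0.20 in osteoblasts, in the same order of mice. Oas1a with the other Oas1 genes, and Ifit3 with Ifit3b, are similar copies in part, so a probe set of one may take up signal of another.

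Usp18 and Trim25 belong to the system that attaches the ubiquitin-like protein Isg15 and removes it. Trim25, a ubiquitin ligase that activates the sensor RIG-I, measured 9.47, 9.48 and 9.50 in tumor-bearing and 9.26, 9.07 and 9.09 in tumor-free endothelial cells, against 7.99, 7.63 and 7.29 in tumor-bearing and 6.63, 7.72 and 7.83 in tumor-free osteoblasts. All 6 endothelial arrays lay above all 6 osteoblast arrays, and its difference was 1.85 ± 0.29 (adjusted p = 0.00125) in tumor-bearing and 1.75 ± 0.29 (adjusted p = 0.00162) in tumor-free mice. Usp18, which removes Isg15 and restrains type I interferon receptor signaling, measured 7.10, 6.76 and 7.06 in tumor-bearing and 5.87, 6.40 and 6.90 in tumor-free endothelial cells, against 6.30, 5.00 and 5.37 in tumor-bearing and 5.80, 5.11 and 6.24 in tumor-free osteoblasts. The groups overlapped in tumor-free mice and not in tumor-bearing mice, where the difference was 1.42 ± 0.38 (adjusted p = 0.0266). The Usp18 call was lost without replicate 2 or 3 of tumor-bearing osteoblasts and without any 1 of the tumor-bearing endothelial arrays (adjusted p up to 0.115).

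Of the 5 transcription factors, Irf8 and Irf9 were higher in endothelial cells in both states. Irf8, a factor best known from myeloid and dendritic cells, measured 7.55, 7.72 and 6.90 in tumor-bearing and 7.48, 7.25 and 7.30 in tumor-free endothelial cells, against 5.94, 6.00 and 5.97 in tumor-bearing and 6.52, 6.36 and 6.23 in tumor-free osteoblasts. Every endothelial array exceeded every osteoblast array, by 1.42 ± 0.20 (adjusted p = 0.00058) in tumor-bearing and 0.98 ± 0.20 (adjusted p = 0.00505) in tumor-free mice. Irf9, the DNA-binding subunit of the type I interferon complex, measured 7.92, 7.38 and 7.64 in tumor-bearing and 7.00, 7.23 and 7.42 in tumor-free endothelial cells, against 6.87, 6.68 and 5.95 in tumor-bearing and 5.50, 6.33 and 5.27 in tumor-free osteoblasts. Its difference was 1.15 ± 0.31 (adjusted p = 0.0263) in tumor-bearing and 1.51 ± 0.31 (adjusted p = 0.00499) in tumor-free mice, again without overlap. Stat2, the partner of Irf9, measured 8.45, 8.54 and 8.54 in tumor-bearing and 8.16, 7.94 and 8.01 in tumor-free endothelial cells, against 7.89, 7.84 and 7.53 in tumor-bearing and 6.33, 7.52 and 7.67 in tumor-free osteoblasts. It was higher in endothelial cells by 0.86 ± 0.29 in tumor-free mice (adjusted p = 0.0454) and by 0.76 ± 0.29 in tumor-bearing mice, which did not pass the test. The Stat2 call held under 5 of 12 other settings and with 2 of 12 single arrays left out, replicates 2 and 3 of tumor-free osteoblasts, and the difference was 0.44 without replicate 1 of that group. Irf7, the factor that amplifies interferon alpha production, measured 6.94, 7.32 and 7.32 in tumor-bearing and 6.42, 6.05 and 6.02 in tumor-free endothelial cells, against 7.16, 5.73 and 5.60 in tumor-bearing and 4.66, 5.78 and 6.04 in tumor-free osteoblasts, with overlap between cell types in both states and no call. In tumor-bearing mice the Irf9 call was lost without replicate 2 or 3 of osteoblasts and without replicate 1 or 3 of endothelial cells (adjusted p up to 0.104).

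Irf1, a factor induced by interferon gamma and by inflammatory signals, measured 9.08, 9.17 and 8.86 in tumor-bearing and 8.78, 8.17 and 8.45 in tumor-free endothelial cells, against 8.84, 8.73 and 8.48 in tumor-bearing and 6.83, 7.75 and 6.94 in tumor-free osteoblasts. Tumor-free osteoblasts formed the low group, and the other 3 groups lay close together. In tumor-free mice the endothelial level was 1.29 ± 0.25 higher on the log2 scale (adjusted p = 0.0038, 2.45-fold). In tumor-bearing mice the difference was 0.35 ± 0.25, below the threshold. A dimmer second probe set of Irf1 gave 0.32 in tumor-bearing and 0.63 in tumor-free mice. Irf1 carries the GAS shown above.

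Among the 6 sensors and effectors of foreign nucleic acids, 3 were higher in endothelial cells in tumor-bearing mice (8.13% of all genes tested) and 2 in tumor-free mice (18.2%). Ddx58, the RNA sensor RIG-I, measured 8.58, 8.67 and 8.61 in tumor-bearing and 8.45, 8.87 and 8.57 in tumor-free endothelial cells, against 7.92, 7.25 and 6.36 in tumor-bearing and 6.40, 7.37 and 7.16 in tumor-free osteoblasts. Its difference was 1.45 ± 0.35 (adjusted p = 0.0172) in tumor-bearing and 1.65 ± 0.35 (adjusted p = 0.00677) in tumor-free mice, and the cell types did not overlap. Eif2ak2, the double-stranded RNA kinase PKR, measured 8.10, 8.05 and 8.71 in tumor-bearing and 7.73, 7.89 and 7.99 in tumor-free endothelial cells, against 7.01, 6.72 and 5.92 in tumor-bearing and 5.10, 6.41 and 5.70 in tumor-free osteoblasts. The endothelial arrays exceeded all osteoblast arrays, by 1.73 ± 0.35 (adjusted p = 0.00612) in tumor-bearing and 2.13 ± 0.35 (adjusted p = 0.00156) in tumor-free mice. Adar, an RNA-editing enzyme, measured 6.63, 6.34 and 6.58 in tumor-bearing and 6.38, 6.18 and 6.38 in tumor-free endothelial cells, against 5.72, 6.06 and 6.05 in tumor-bearing and 6.12, 5.89 and 6.12 in tumor-free osteoblasts. Its difference was small, at 0.58 ± 0.15 (adjusted p = 0.0252) in tumor-bearing and 0.27 ± 0.15 in tumor-free mice. Ifih1, the RNA sensor MDA5, averaged 8.49 ± 0.17 and 7.82 ± 0.13 in endothelial cells of tumor-bearing and tumor-free mice, against 7.40 ± 1.31 and 6.59 ± 0.81 in osteoblasts, where the spread was wide. Dhx58, a related helicase, averaged 5.46 ± 0.28 and 5.64 ± 0.29 in endothelial cells and 5.42 ± 0.30 and 5.25 ± 0.30 in osteoblasts. Zbp1, a sensor of Z-form nucleic acids, averaged 6.80 ± 0.10 and 6.31 ± 0.45 in endothelial cells and 6.74 ± 0.63 and 6.18 ± 0.22 in osteoblasts, and neither gene passed the test. In tumor-bearing mice the Ddx58 call was lost without any 1 of the 3 endothelial arrays (adjusted p up to 0.0558). The Adar call was lost with blocks by tumor state, without replicate 1 of osteoblasts and without replicate 1 or 3 of endothelial cells (adjusted p up to 0.0997).

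The interferon-inducible GTPases, which act at membranes of compartments that hold pathogens, had a median difference of 1.81 in tumor-bearing and 2.82 in tumor-free mice over 3 genes. Iigp1 measured 9.74, 9.53 and 9.64 in tumor-bearing and 9.18, 9.37 and 9.33 in tumor-free endothelial cells, against 8.36, 7.21 and 6.58 in tumor-bearing and 6.32, 5.87 and 6.80 in tumor-free osteoblasts. Its endothelial arrays spanned a narrow range far above the osteoblast arrays, with a difference of 2.25 ± 0.38 (4.76-fold, adjusted p = 0.00192) in tumor-bearing and 2.96 ± 0.38 (7.79-fold, adjusted p = 0.000305) in tumor-free mice. Irgm1, a regulator of this family whose promoter is shown above, measured 8.36, 8.34 and 7.84 in tumor-bearing and 7.67, 8.44 and 8.51 in tumor-free endothelial cells, against 6.90, 6.80 and 5.41 in tumor-bearing and 4.51, 5.37 and 6.30 in tumor-free osteoblasts. The cell types did not overlap, and the difference was 1.81 ± 0.48 (adjusted p = 0.0266) in tumor-bearing and 2.82 ± 0.48 (adjusted p = 0.00199) in tumor-free mice. Gbp3, a guanylate-binding protein, measured 7.70, 7.39 and 7.15 in tumor-bearing and 6.48, 7.09 and 6.46 in tumor-free endothelial cells, against 6.90, 5.99 and 6.46 in tumor-bearing and 4.74, 5.73 and 5.77 in tumor-free osteoblasts. It was higher in endothelial cells by 1.26 ± 0.32 in tumor-free mice (adjusted p = 0.0152), and by 0.97 ± 0.32 in tumor-bearing mice, below the threshold. Guanylate-binding proteins and Irg GTPases come in tandem copies, so their probe sets may take up signal of neighbors. The Irgm1 call in tumor-bearing mice was lost without replicate 3 of osteoblasts and without any 1 of the endothelial arrays (adjusted p up to 0.0984), and the Gbp3 call in tumor-free mice with only the groups compared and without replicate 2 of endothelial cells (adjusted p up to 0.0614).

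Parp9 and Dtx3l, which form an ADP-ribosylating ubiquitin ligase, and the ADP-ribosyltransferases Parp12 and Parp14 were all called higher in endothelial cells of tumor-free mice. Parp14 measured 8.88, 8.88 and 8.54 in tumor-bearing and 8.40, 8.55 and 8.74 in tumor-free endothelial cells, against 7.09, 6.85 and 5.44 in tumor-bearing and 5.36, 7.04 and 6.51 in tumor-free osteoblasts. Replicate 3 of tumor-bearing and replicate 1 of tumor-free osteoblasts were the lowest, and no osteoblast array reached the endothelial arrays. Its difference was 2.31 ± 0.46 (adjusted p = 0.00529) in tumor-bearing and 2.26 ± 0.46 (adjusted p = 0.00498) in tumor-free mice. Parp9 measured 7.51, 7.18 and 7.58 in tumor-bearing and 7.05, 7.36 and 6.91 in tumor-free endothelial cells, against 6.65, 6.17 and 5.35 in tumor-bearing and 5.85, 5.95 and 5.30 in tumor-free osteoblasts, with a difference of 1.37 ± 0.30 (adjusted p = 0.0103) in tumor-bearing and 1.40 ± 0.30 (adjusted p = 0.00698) in tumor-free mice. Both of these genes thus passed in each state without overlap. Parp12 measured 7.74, 7.38 and 7.67 in tumor-bearing and 7.54, 7.59 and 7.31 in tumor-free endothelial cells, against 7.40, 6.81 and 6.12 in tumor-bearing and 5.67, 6.51 and 5.31 in tumor-free osteoblasts, and passed in tumor-free mice at 1.65 ± 0.34 (adjusted p = 0.0056). Dtx3l measured 7.02, 7.01 and 7.05 in tumor-bearing and 7.05, 7.43 and 7.03 in tumor-free endothelial cells, against 6.75, 5.76 and 5.88 in tumor-bearing and 5.03, 6.98 and 5.80 in tumor-free osteoblasts, and passed in tumor-free mice at 1.24 ± 0.41 (adjusted p = 0.0438). In tumor-bearing mice Parp12 overlapped between the cell types and Dtx3l did not, and neither passed. The Dtx3l call in tumor-free mice held under 7 of 12 other settings and with 2 of 12 single arrays left out, replicate 1 of tumor-bearing and replicate 2 of tumor-free osteoblasts, and the difference was 0.78 without replicate 1 of tumor-free osteoblasts.

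Of the remaining effectors, Xaf1, a partner of apoptosis inhibitors, measured 8.03, 7.87 and 7.73 in tumor-bearing and 7.55, 8.08 and 8.21 in tumor-free endothelial cells, against 6.49, 6.62 and 5.93 in tumor-bearing and 4.86, 6.16 and 6.10 in tumor-free osteoblasts. Its difference was 1.53 ± 0.33 (adjusted p = 0.00943) in tumor-bearing and 2.24 ± 0.33 (adjusted p = 0.000845) in tumor-free mice, with every endothelial array higher. Bst2, the membrane protein tetherin, measured 9.26, 8.99 and 8.91 in tumor-bearing and 8.996, 9.27 and 9.09 in tumor-free endothelial cells, against 8.09, 7.27 and 6.86 in tumor-bearing and 7.65, 8.31 and 7.97 in tumor-free osteoblasts. Its difference was 1.64 ± 0.28 (adjusted p = 0.00236) in tumor-bearing and 1.14 ± 0.28 (adjusted p = 0.0134) in tumor-free mice, again without overlap. Rsad2, the antiviral enzyme viperin, measured 7.94, 7.71 and 8.08 in tumor-bearing and 8.04, 7.77 and 7.65 in tumor-free endothelial cells, against 8.08, 7.15 and 5.71 in tumor-bearing and 5.38, 6.55 and 6.28 in tumor-free osteoblasts. Replicate 1 of tumor-bearing osteoblasts was as high as the endothelial arrays, and the gene passed in tumor-free mice alone, at 1.75 ± 0.49 (adjusted p = 0.0228). Ifi35, a leucine zipper protein that partners with Nmi, measured 7.20, 7.12 and 7.20 in tumor-bearing and 7.12, 6.99 and 7.02 in tumor-free endothelial cells, against 6.18, 6.19 and 5.55 in tumor-bearing and 5.51, 6.87 and 6.25 in tumor-free osteoblasts. It did not overlap between cell types and passed in tumor-bearing mice, at 1.20 ± 0.29 (adjusted p = 0.0175). Rtp4, a transmembrane receptor transporter, measured 9.55, 9.70 and 9.46 in tumor-bearing and 8.80, 8.76 and 9.32 in tumor-free endothelial cells, against 8.69, 7.35 and 5.62 in tumor-bearing and 6.89, 8.03 and 6.89 in tumor-free osteoblasts. Its osteoblast levels were spread over several log2 units, and it passed in tumor-bearing mice at 2.35 ± 0.61 (adjusted p = 0.0231). Trim30a, a regulator of Toll-like receptor signaling, averaged 9.73 ± 0.04 and 9.52 ± 0.05 in endothelial cells of tumor-bearing and tumor-free mice, against 7.74 ± 1.33 and 7.59 ± 1.72 in osteoblasts. Samd9l, an antiviral and growth-restraining protein, averaged 9.17 ± 0.22 and 9.05 ± 0.18 in endothelial cells against 6.76 ± 1.17 and 6.94 ± 1.86 in osteoblasts. For both, all endothelial arrays lay above all osteoblast arrays and the test was not passed, beside these SDs. Cmpk2, a mitochondrial nucleotide kinase, averaged 5.07 ± 0.13 and 5.00 ± 0.27 in endothelial cells and 4.43 ± 0.11 and 4.75 ± 0.12 in osteoblasts. Several of these calls rested on single arrays. Rsad2 lost its call without replicate 1 of tumor-free osteoblasts, without any 1 of the tumor-free endothelial arrays and with weights per group (adjusted p up to 0.0693 over left-out arrays). Ifi35 lost it without replicate 3 of tumor-bearing osteoblasts and without replicate 1 or 3 of tumor-bearing endothelial cells (adjusted p up to 0.0728). Rtp4 lost it without replicate 2 of tumor-bearing osteoblasts and without any 1 of the tumor-bearing endothelial arrays (adjusted p up to 0.0726). Bst2 lost its tumor-free call with both tumor-free arrays numbered 1 left out (adjusted p = 0.0575).

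Isg20, an exonuclease that degrades RNA, was the gene called lower in endothelial cells of tumor-bearing mice. It measured 6.70, 6.48 and 6.68 in tumor-bearing and 6.66, 6.92 and 6.46 in tumor-free endothelial cells, against 7.72, 8.92 and 8.75 in tumor-bearing and 8.35, 7.06 and 6.48 in tumor-free osteoblasts. The endothelial levels were low and even, and all 3 tumor-bearing osteoblast arrays lay above them. The difference was -1.85 ± 0.43 (adjusted p = 0.0132) in tumor-bearing mice and -0.62 ± 0.43 in tumor-free mice, where the cell types overlapped. The call was lost without replicate 2 or without replicate 3 of tumor-bearing osteoblasts, where the adjusted p reached 0.062.

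**Figure D2:**
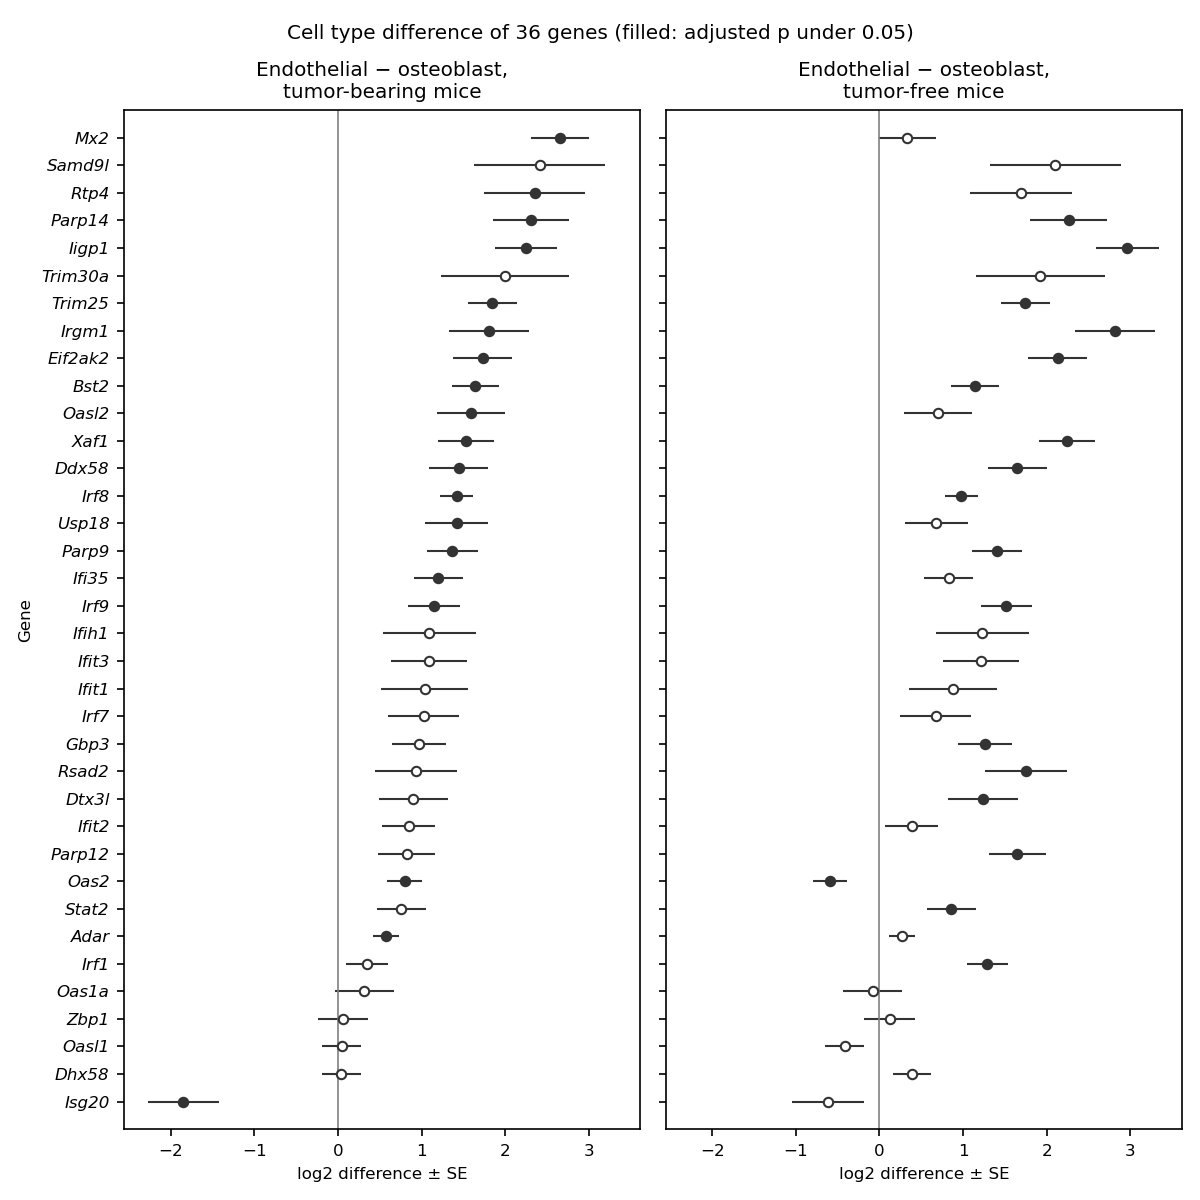
Log2 difference between endothelial cells and osteoblasts (x axis, point, with its standard error as a bar) for the 36 genes tested (y axis), in tumor-bearing mice on the left and tumor-free mice on the right, with filled points at an adjusted p under 0.05. Most points lie right of 0 in both panels, Isg20 is called lower on the left and Oas2 on the right.

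Tumors were set against no tumors first within endothelial cells, where no interferon-stimulated gene passed the test. By limma, 0 of 36 genes were called, beside 0.0241% of all genes tested (0.0161% higher and 0.00805% lower). At an unadjusted p under 0.05 stood 6 genes, all with a higher mean in tumor-bearing mice, beside 6.93% of all genes tested in either direction and 3.28% with a higher mean. Over all 39 measured genes 32 were higher in tumor-bearing mice, with a median log2 difference of 0.33, against 0.02 over all measured genes. All tumor-bearing arrays lay above all tumor-free arrays for 17 of the 36 genes (7.84% of all genes tested) and below for 0 (10.9%). The 17 were Ifit1, Ifit2, Ifit3, Mx2, Oas2, Oasl2, Irf1, Irf7, Stat2, Ifi35, Ifih1, Gbp3, Iigp1, Rtp4, Trim25, Trim30a and Eif2ak2. Mx2, among the 6 and the 17, was tested only through the tumor-bearing endothelial arrays, so its place there adds no support. The hematopoietic marker level overlapped between these groups, and 0 of its 17 genes tested passed. Markers of the other sort and of endothelial cells moved too. The mean of 8 osteoblast markers was 6.38, 6.31 and 6.28 in tumor-bearing and 5.92, 5.96 and 6.02 in tumor-free endothelial cells. Without overlap 5 of the 8 were higher (7.84% of all genes tested) and 0 lower (10.9%), and 0 were called. Of 10 endothelial markers, 1 was higher (7.84%) and 6 were lower (10.9%) without overlap and 0 were called. Their part in the interferon-stimulated genes was not tested.

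Mx2 had the smallest p in endothelial cells, with arrays of 7.13, 6.54 and 6.55 in tumor-bearing and 4.41, 4.14 and 4.55 in tumor-free mice. The groups lay far apart, the difference was 2.37 ± 0.35 (95% interval 1.61 to 3.14, 5.19-fold), and the adjusted p was 0.0597. Since Mx2 passed the filter on low values through the 3 tumor-bearing endothelial arrays alone, a high level in that group was a condition of its being tested, and its p supports nothing further. The adjusted p was 0.0285 with the 2 endothelial groups alone in the fit and ranged from 0.00117 to 0.166 over the settings tried and from 0.0264 to 0.463 over the 9 left-out arrays with which Mx2 was tested. Oas2 followed, with 5.92, 6.24 and 6.70 in tumor-bearing and 5.47, 5.03 and 5.16 in tumor-free endothelial cells and a difference of 1.07 ± 0.21 (adjusted p = 0.174). Ifit2 measured 7.75, 7.36 and 7.83 in tumor-bearing and 6.66, 6.38 and 6.92 in tumor-free endothelial cells, a difference of 0.99 ± 0.32 (adjusted p = 0.499). These 3 genes are antiviral effectors, and all 8 tested genes of that role had a higher mean in tumor-bearing endothelial cells. Irf7 differed by 1.03 ± 0.43 (adjusted p = 0.664), Irf1 by 0.57 ± 0.25 (adjusted p = 0.696) and Gbp3 by 0.74 ± 0.32 (adjusted p = 0.697), each without overlap between the groups. The count of 0 became 1 without replicate 1 of tumor-bearing osteoblasts, which enter the shared estimate of the spread, and 1 without replicate 1 of tumor-free endothelial cells. Among the tested genes the lowest differences were those of Dhx58, at -0.18 ± 0.23, and Dtx3l, at -0.14 ± 0.41.

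In osteoblasts, Irf1 rose in tumor-bearing mice and was the only one of 36 interferon-stimulated genes called. Of all genes tested, 4.59% were called in this comparison, 4.01% higher and 0.571% lower. Irf1 measured 8.84, 8.73 and 8.48 in tumor-bearing and 6.83, 7.75 and 6.94 in tumor-free osteoblasts. The groups did not overlap, and the difference was 1.51 ± 0.25 (95% interval 0.97 to 2.06, 2.85-fold, adjusted p = 0.0103). A dimmer second probe set of Irf1 differed by 0.95 in the same direction. The adjusted p of Irf1 ranged from 0.00857 to 0.131 over the settings tried: it was 0.131 with the 2 osteoblast groups alone in the fit, and 0.0526 without replicate 2 of tumor-bearing osteoblasts. The count of 1 call became 2 without replicate 1 and 3 without replicate 2 of tumor-free osteoblasts.

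At an unadjusted p under 0.05 stood 7 genes, all with a higher mean in tumor-bearing mice, where 14.6% of all genes tested met that mark in that direction. Gbp3 measured 6.90, 5.99 and 6.46 in tumor-bearing and 4.74, 5.73 and 5.77 in tumor-free osteoblasts, a difference of 1.04 ± 0.32 (adjusted p = 0.0883) without overlap. Iigp1 measured 8.36, 7.21 and 6.58 in tumor-bearing and 6.32, 5.87 and 6.80 in tumor-free osteoblasts and differed by 1.05 ± 0.38 (adjusted p = 0.126). In Iigp1, as in the next 3 genes, the groups overlapped. Parp12 measured 7.40, 6.81 and 6.12 in tumor-bearing and 5.67, 6.51 and 5.31 in tumor-free osteoblasts and differed by 0.94 ± 0.34 (adjusted p = 0.13). Isg20 measured 7.72, 8.92 and 8.75 in tumor-bearing and 8.35, 7.06 and 6.48 in tumor-free osteoblasts and differed by 1.17 ± 0.43 (adjusted p = 0.134). Irf9 differed by 0.80 ± 0.31 (adjusted p = 0.146). The direction was not shared by all: Bst2 had the lowest difference, -0.57 ± 0.28, and Irf8 measured 5.94, 6.00 and 5.97 in tumor-bearing and 6.52, 6.36 and 6.23 in tumor-free osteoblasts, below without overlap, at -0.40 ± 0.20 (adjusted p = 0.239).

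All tumor-bearing osteoblast arrays lay above all tumor-free arrays for 2 of 36 genes (12.3% of all genes tested) and below for 1 (12.3%). Over all 39 measured genes 26 had a higher mean in tumor-bearing osteoblasts, with a median log2 difference of 0.20, against −0.14 over all measured genes. The median over the 36 genes tested was 0.30, and it rested on single arrays: it was 0.06 without replicate 1 and 0.70 without replicate 3 of tumor-bearing osteoblasts.

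**Figure D3:**
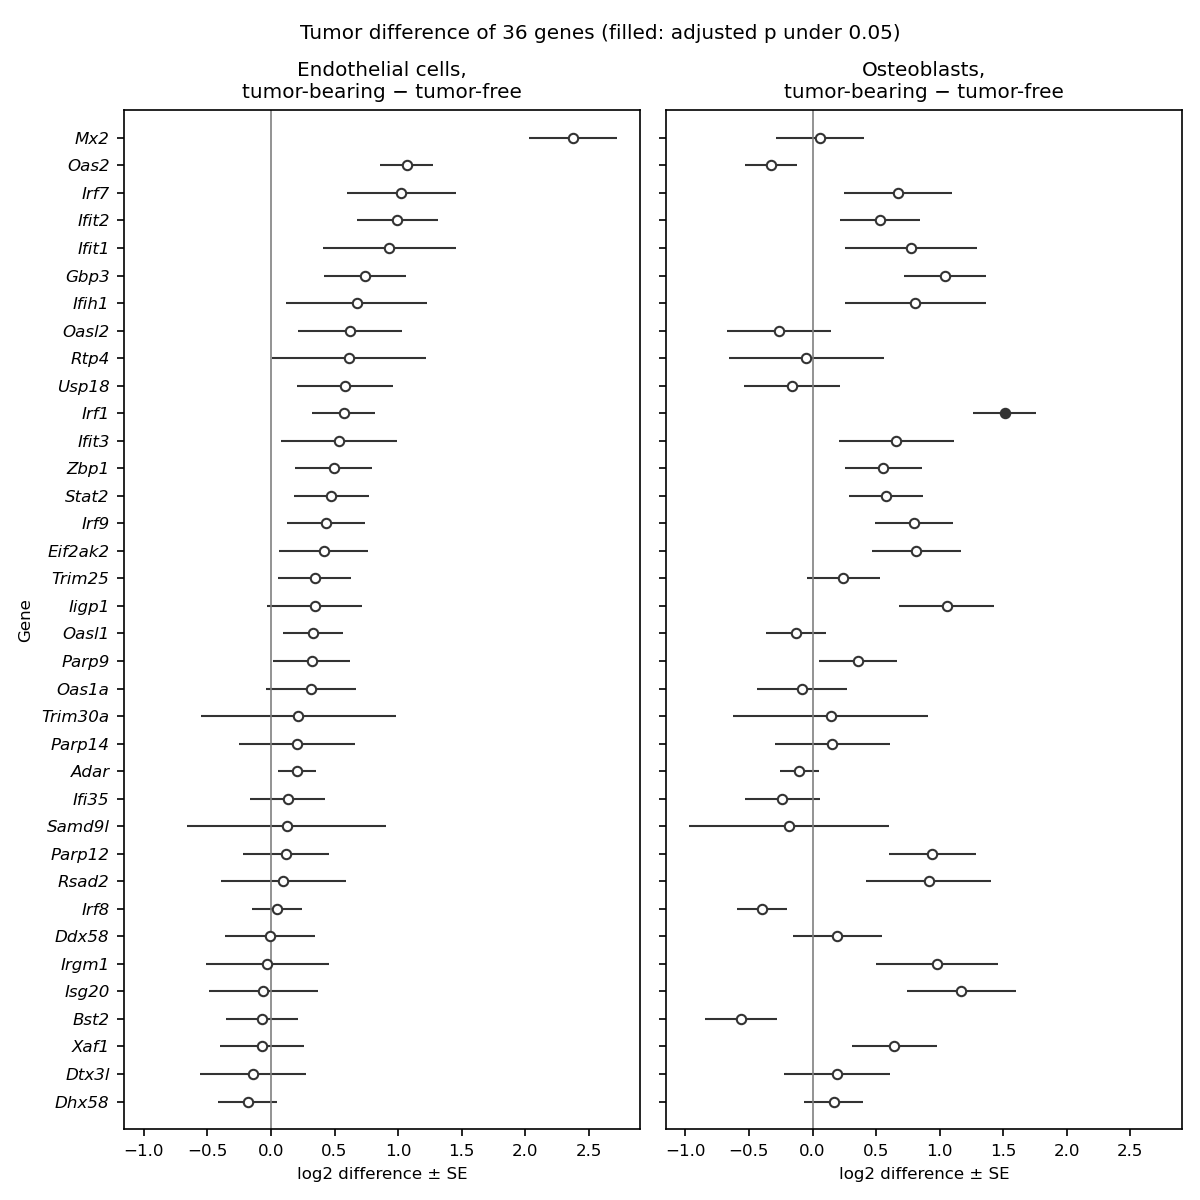
Log2 difference between tumor-bearing and tumor-free mice (x axis, point, with its standard error as a bar) for the 36 genes tested (y axis), in endothelial cells on the left and osteoblasts on the right. Irf1 in osteoblasts is the only filled point (adjusted p under 0.05), and Mx2 lies farthest right in endothelial cells.

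Whether the tumor difference itself differed between the cell types was tested as an interaction. By limma 0 of the 36 genes passed, where 0.209% of all genes tested did (0.0322% higher and 0.177% lower), and 3 reached an unadjusted p under 0.05, beside 16% of all genes tested. Oas2 differed by 1.07 ± 0.21 in endothelial cells and -0.32 ± 0.21 in osteoblasts, so that the endothelial minus osteoblast contrast was 1.39 ± 0.29 (adjusted p = 0.0781). For Mx2 the tumor differences were 2.37 ± 0.35 in endothelial cells and 0.06 ± 0.35 in osteoblasts, a contrast of 2.32 ± 0.49 (adjusted p = 0.0781), with the same limit from the filter. For Irf1 the contrast was -0.94 ± 0.35 (adjusted p = 0.239), for Isg20 -1.23 ± 0.61 (adjusted p = 0.343), for Parp12 -0.83 ± 0.48 (adjusted p = 0.408) and for Irf8 0.44 ± 0.28 (adjusted p = 0.441). The same contrast compares the cell type difference between tumor-bearing and tumor-free mice, so a gene called in one state alone is not shown to differ between the states. The median contrast over the 36 genes was 0.01. The count of 0 became 1 without replicate 1 of tumor-bearing osteoblasts, 2 without replicate 1 of tumor-free osteoblasts and 1 without replicate 2 of tumor-free osteoblasts.

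**Figure D4:**
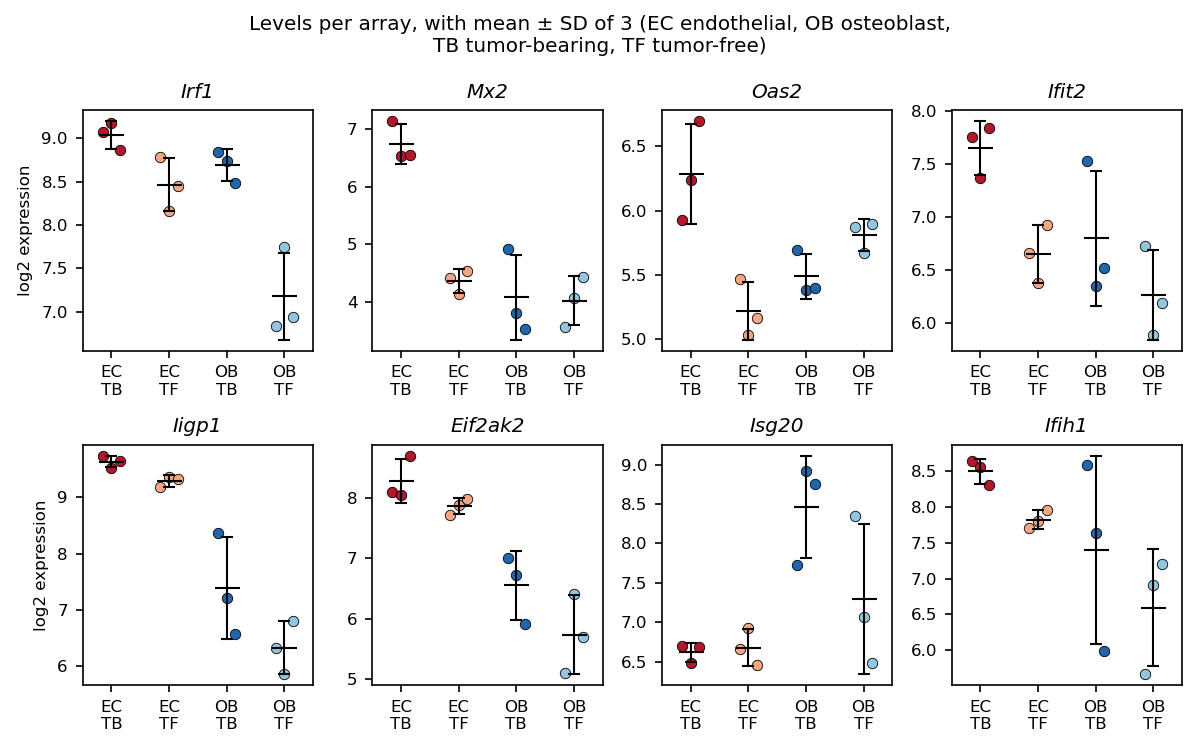
Log2 expression of 8 interferon-stimulated genes on each array (points), with the mean and SD of the 3 arrays of a group (bars), for endothelial cells (EC) and osteoblasts (OB) of tumor-bearing (TB) and tumor-free (TF) mice. Mx2 stands apart in tumor-bearing endothelial cells, Irf1 is low in tumor-free osteoblasts, and Isg20 is low in endothelial cells.

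The spread among replicates differed by cell type. The median SD of the 39 genes was 0.187 in tumor-bearing and 0.208 in tumor-free endothelial cells, against 0.627 in tumor-bearing and 0.584 in tumor-free osteoblasts. Over all measured genes the median SD was 0.160 and 0.139 in the endothelial groups and 0.188 and 0.245 in the osteoblast groups, in the same order of mice. The genes moved together within osteoblasts: replicate 1 of the tumor-bearing osteoblasts was the highest of its group for 31 of 39 genes and replicate 3 the lowest for 29, whereas over all measured genes these arrays were highest for 25.8% and lowest for 28.4%. In tumor-free osteoblasts replicate 1 was the lowest for 22 of 39.

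The mean log2 level of the 39 genes was 7.62, 7.54 and 7.52 in tumor-bearing and 7.10, 7.21 and 7.20 in tumor-free endothelial cells. It was 6.99, 6.48 and 5.92 in tumor-bearing and 5.87, 6.40 and 6.14 in tumor-free osteoblasts. The endothelial groups did not overlap, and the osteoblast groups did. Within each osteoblast group the array with the lowest level of the 21 hematopoietic markers also had the lowest mean of the 39 genes. The megakaryocyte marker mean did not follow this in tumor-bearing osteoblasts, where replicate 3 was the highest. The mean of 8 osteoblast markers ranked the arrays within each osteoblast group as the mean of the 39 genes did. It was 9.74, 9.56 and 9.41 in tumor-bearing and 8.71, 10.05 and 9.72 in tumor-free osteoblasts. The part of blood cell RNA, or of osteoblast RNA, in the osteoblast values was not tested. In endothelial cells, with the higher levels of the 39 genes, the level of the 21 markers stayed between 4.99 and 5.58.

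**Figure D5:**
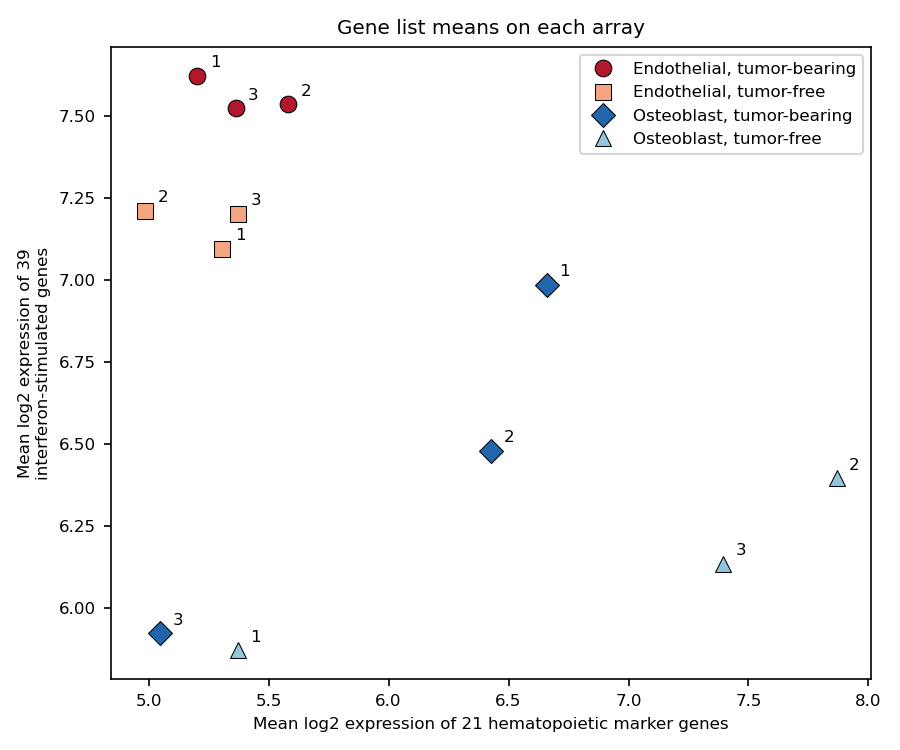
Mean log2 expression of the 39 measured interferon-stimulated genes (y axis) against the mean log2 expression of 21 hematopoietic marker genes (x axis) on each of the 12 arrays, numbered by replicate within its group. The endothelial arrays lie high on the y axis and low on the x axis, and the osteoblast arrays spread along both axes.

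Upstream of these genes stand the interferons themselves. Of 14 interferon genes measured, 7 were above the array median often enough to be tested. Between tumor-bearing and tumor-free mice 0 were called in osteoblasts (4.59% of all genes tested) and 0 in endothelial cells (0.0241%). In the interaction 0 were called as well (0.209%). The interferon genes with the smallest p in osteoblasts were Ifnab, at -0.57 ± 0.21 (adjusted p = 0.132), Ifna9, at -0.56 ± 0.19 (adjusted p = 0.116), and Ifng, at -0.20 ± 0.16. In endothelial cells they were Ifnl2, at 0.14 ± 0.15, Ifna5, at -0.11 ± 0.18, and Ifna14, at 0.08 ± 0.15, each with an adjusted p of 0.999. The interferon alpha genes are near-identical copies, so their probe sets may share signal. Of the 6 receptor subunits tested 0 were called in the tumor comparisons, beside the same shares of all genes tested. In osteoblasts Ifnar1 differed by 0.59 ± 0.18 (adjusted p = 0.0789), Ifnar2 by -0.79 ± 0.34 (adjusted p = 0.184) and Ifngr1 by -0.42 ± 0.34. In endothelial cells Ifnar1 differed by -0.45 ± 0.18, Ifngr2 by -0.58 ± 0.34 and Ifnar2 by -0.34 ± 0.34. Ifnar1 was higher in endothelial cells than in osteoblasts of tumor-free mice, by 1.30 ± 0.18 (adjusted p = 0.000475).

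In the signaling step, 2 of 10 genes tested rose in tumor-bearing osteoblasts (4.01% of all genes tested) and 0 were called in endothelial cells (0.0241%). Ptpn11, the phosphatase SHP2, measured 8.14, 8.13 and 8.08 in tumor-bearing and 7.18, 6.74 and 7.21 in tumor-free osteoblasts, without overlap, and differed by 1.07 ± 0.16 (adjusted p = 0.00789). Stat3, a mediator of interleukin-6 family and interferon signals, measured 8.92, 9.05 and 8.69 in tumor-bearing and 7.86, 8.23 and 8.16 in tumor-free osteoblasts and differed by 0.80 ± 0.20 (adjusted p = 0.0453), also without overlap. In endothelial cells the smallest p belonged to Jak2, at 0.88 ± 0.30 (adjusted p = 0.53), Stat3, at 0.52 ± 0.20, and the inhibitor Socs3, at 0.60 ± 0.27. Between cell types the kinase Jak1 was higher in endothelial cells in both states, by 0.97 ± 0.15 (adjusted p = 0.00102) in tumor-bearing and 1.52 ± 0.15 (adjusted p = 4.37e-05) in tumor-free mice.

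Of 12 sensing adaptors and kinases tested, 0 were called for tumors in osteoblasts (4.59% of all genes tested), in endothelial cells (0.0241%) or in the interaction (0.209%). In osteoblasts the smallest p belonged to Tlr9, at -0.49 ± 0.14 (adjusted p = 0.0747), Tlr4, at -1.36 ± 0.55, and Myd88, at 1.06 ± 0.44. In endothelial cells it belonged to Irf3, at -0.62 ± 0.21, Sting1, at 1.02 ± 0.36 (adjusted p = 0.559), and Ikbke, at 0.35 ± 0.18. Sting1, the adaptor of cytosolic DNA sensing, measured 9.11, 8.59 and 8.65 in tumor-bearing and 7.89, 7.82 and 7.57 in tumor-free endothelial cells, against 5.63, 6.89 and 6.50 in tumor-bearing and 6.54, 5.41 and 5.45 in tumor-free osteoblasts. Its endothelial arrays exceeded all osteoblast arrays, by 2.45 ± 0.36 (adjusted p = 0.000779) in tumor-bearing and 1.96 ± 0.36 (adjusted p = 0.00276) in tumor-free mice. Tlr3, the endosomal sensor of double-stranded RNA, was also called higher in endothelial cells, by 1.77 ± 0.29 in tumor-bearing and 1.67 ± 0.29 in tumor-free mice. In tumor-bearing mice 2 of the 12 were higher (8.13% of all genes tested) and 0 lower (6.79%). In tumor-free mice 3 were higher (18.2% of all genes tested), with the kinase Tbk1 at 1.14 ± 0.29. In the same mice 3 were lower (12.7%), with Tlr9 at -0.44 ± 0.14, the factor Irf5 at -0.97 ± 0.29 and the kinase Ikbke at -0.59 ± 0.18.

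A second list of 57 measured genes known to respond to interferon gave no call in the tumor comparisons. Of 48 tested by limma, 0 were called in endothelial cells (0.0241% of all genes tested) and 0 in osteoblasts (4.59%). An unadjusted p under 0.05 was reached by 5 in endothelial cells (6.93% of all genes tested) and by 7 in osteoblasts (24.4%). Slfn2, a Schlafen protein, measured 7.50, 7.60 and 7.28 in tumor-bearing and 6.09, 5.63 and 6.01 in tumor-free endothelial cells and differed by 1.55 ± 0.30 (adjusted p = 0.174). Gbp5 measured 6.21, 6.86 and 6.17 in tumor-bearing and 5.32, 4.44 and 5.42 in tumor-free endothelial cells and differed by 1.35 ± 0.28 (adjusted p = 0.178). In both genes the tumor-bearing arrays lay above the tumor-free arrays without overlap, and Ifi30 came next, at 0.70 ± 0.25. In osteoblasts the smallest p belonged to Plac8, at -1.43 ± 0.40 (adjusted p = 0.0657), Gbp4, at -1.77 ± 0.53 (adjusted p = 0.0809), and Uba7, at -0.44 ± 0.14. Between cell types 25 of the 48 were higher in endothelial cells in tumor-bearing mice (8.13% of all genes tested) and 1 was lower (6.79%). In tumor-free mice 17 were higher (18.2%) and 4 lower (12.7%). Gbp9 measured 9.89, 9.89 and 10.19 in tumor-bearing and 9.96, 9.58 and 9.80 in tumor-free endothelial cells, against 6.81, 6.12 and 4.36 in tumor-bearing and 5.16, 7.01 and 7.70 in tumor-free osteoblasts, and the chemokine Cxcl9, a ligand of Cxcr3 induced by interferon gamma, measured 9.86, 9.70 and 9.26 in tumor-bearing and 8.76, 9.15 and 8.71 in tumor-free endothelial cells, against 8.41, 6.45 and 5.77 in tumor-bearing and 6.49, 6.50 and 5.56 in tumor-free osteoblasts. The difference between endothelial cells and osteoblasts was 4.22 ± 0.65 (adjusted p = 0.00117) for Gbp9 and 2.73 ± 0.54 (adjusted p = 0.00567) for Cxcl9 in tumor-bearing mice. Ifi30, a lysosomal reductase of antigen processing, was the gene called lower in tumor-bearing mice, at -1.05 ± 0.25 (adjusted p = 0.0148).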

How the data were processed

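The submitters' files hold 34760 probe sets with deposited log2 expression on 12 arrays, made with affy per the submitters' processing notes. Per the labels' protocols the RNA was isolated by Pico Pure, turned into cDNA by SPIA amplification and carried biotin. The labels state neither the version of affy nor how background and scale were corrected, and signal over background was not used, so the number of arrays limits the precision. The design text speaks of 6 to 10 samples.

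Groups came from the sample titles. No 2 of the 66 array pairs held identical values. The symbols of all 39 measured genes matched the RefSeq gene table by Entrez number. Genes above the array median on at least 3 of 12 arrays were tested, 12430 of 19937, or 62.3%. The tests were limma 3.58.1 (R 4.3.3) fits of 4 group means with default moderation, two-sided, with Benjamini-Hochberg adjustment over all genes tested and a threshold of 0.05. Errors of differences are standard errors, and those of means are SDs of 3 arrays. The fit was tested on simulated data with known changes. All genes and groups had the same spread there, so it does not cover the unequal spread of the 2 cell types.

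The members, gene lists and tests were chosen with earlier results of these data known. Every measured gene was named, per array where called, or where among the 6 smallest p of a comparison with fewer calls; of pathway lists, those called in a tumor comparison or the 3 smallest p. Alternatives were other scalings, filters, probe set rules, variance models, array weights, arrays left out and the replicate number as a block.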

Additional observations from a re-analysis of the deposited data

Results flagged for a closer look

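Ptpn11, the phosphatase SHP2, which can remove the activating phosphate from Stat proteins and also carries growth factor signals, showed a tumor difference that was not the same in the 2 cell types. Its log2 levels were 8.21, 7.96 and 8.24 in tumor-bearing and 8.44, 8.66 and 8.38 in tumor-free endothelial cells, against 8.14, 8.13 and 8.08 in tumor-bearing and 7.18, 6.74 and 7.21 in tumor-free osteoblasts. Tumor-bearing arrays lay below tumor-free arrays in endothelial cells and above them in osteoblasts, without overlap in either. The interaction, endothelial minus osteoblast, was −1.42 ± 0.23 (SE) with an adjusted p of 0.0413 (limma, Benjamini-Hochberg over all genes tested, 3 arrays a group). In this contrast 0.209% of all genes tested passed. With the replicate number as a block, or with blocks by tumor state, 0 genes passed, so Ptpn11 was not called. The call was also lost without replicate 2 of tumor-bearing osteoblasts and without replicate 2 or 3 of tumor-free endothelial cells. Without any 1 of the 3 tumor-bearing endothelial arrays it was lost too.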

How the results depend on the processing

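No call of an interferon-stimulated gene of the list changed direction under the settings tried, and called genes outside the list were not followed. The count of interferon-stimulated genes called in osteoblasts for tumors, 1 as reported, was 2 with array weights, 0 with only the 2 groups compared in the fit and 2 with both tumor-free arrays numbered 1 left out, and 0 to 3 with 1 array left out. In endothelial cells the count of 0 was 1 with the mean over probe sets, 3 with array weights, 2 with weights per group, 1 with only the groups compared and 2 with both tumor-free arrays numbered 1 left out, and 0 to 1 with 1 array left out. For the interaction the count of 0 was 1 with array weights and 2 with both tumor-free arrays numbered 1 left out, and 0 to 2 with 1 array left out. The cell type counts were 19 in tumor-bearing mice (29 with array weights, 9 to 23 with 1 array left out) and 18 in tumor-free mice (14 to 21 over settings, 13 to 20 with 1 array left out). The cause of these moves was not tested.

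Under every setting and with every array left out, 8 of the 19 cell type calls in tumor-bearing mice were kept (Irf8, Iigp1, Xaf1, Parp9, Parp14, Trim25, Bst2 and Eif2ak2). Mx2 was called wherever it was tested, which was with 9 of the 12 single arrays left out. Wherever the filter was used, a high level in tumor-bearing endothelial cells was a condition of its being tested, so these calls add no support. In tumor-free mice 12 of 18 were kept (Irf1, Irf8, Irf9, Ddx58, Irgm1, Iigp1, Xaf1, Parp9, Parp12, Parp14, Trim25 and Eif2ak2). With the replicate block, the replicate number as a factor, the counts were 1 for tumors in osteoblasts, 0 in endothelial cells, 0 for the interaction, 21 for cell type in tumor-bearing and 17 in tumor-free mice. With blocks by tumor state they were 0 for the interaction, 18 in tumor-bearing and 16 in tumor-free mice. The labels tie the numbers to no shared mice, and same-numbered arrays of the groups compared had correlations of their deviations from the group means from −0.26 to 0.0948. The median cell type difference in tumor-free mice was 0.03 over all genes tested and 1.22 over the 36 genes, and 0.18 and 1.37 under median centring.

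Over all genes tested, the calls for tumors in osteoblasts were 570 as reported, 955 without the filter, 349 with the replicate block, 130 with weights per group, 0 with only the groups compared and 1401 with both tumor-free arrays numbered 1 left out. In endothelial cells they were 3 as reported, 7 with the mean over probe sets, 449 with array weights, 38 with weights per group, 156 with both tumor-free arrays numbered 1 left out, and 0 with the replicate block, quantile normalization, median centring, no filter, the stricter filter or the intensity trend. For the interaction they were 26 as reported, 0 with either block, 14 with quantile normalization, 96 with median centring, 11 with the stricter filter, 41 with the mean over probe sets, 324 with array weights and 374 with both tumor-free arrays numbered 1 left out. For cell type they were 1854 as reported and 3733 with array weights in tumor-bearing mice, and 3850 as reported, 1911 with only the groups compared, 2529 with weights per group and 6564 without the filter in tumor-free mice.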

Other observations

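Ifnb1, the gene of interferon beta, was above the array median on fewer than 3 arrays and was not tested. Its log2 level was 8.14, 6.50 and 4.09 in tumor-bearing osteoblasts, against 5.35, 3.79 and 4.27 in tumor-free osteoblasts. In endothelial cells Ifnb1 was 5.07, 4.08 and 3.67 in tumor-bearing and 3.96, 3.97 and 3.90 in tumor-free mice. Ifi205, an interferon-inducible gene of the Ifi200 family, was also not tested and measured 6.59, 4.71 and 2.60 in tumor-bearing and 2.94, 3.60 and 3.69 in tumor-free osteoblasts. In both genes replicate 1 of tumor-bearing osteoblasts was the highest of all arrays and replicate 3 was close to the tumor-free arrays, which is also the order of the mean of the 39 interferon-stimulated genes on these 3 arrays. The chemokine Ccl5 had a high value on the same array, with 8.82, 6.70 and 6.17 in tumor-bearing and 5.98, 6.20 and 6.26 in tumor-free osteoblasts. In tumor-free osteoblasts the mean of the 39 genes was 5.87, 6.40 and 6.14. Ifnb1 ran in the reverse of that order there, and neither Ifi205 nor Ccl5 kept it. These 3 genes were chosen after their values were seen, and their part in the level of the 39 genes was not tested.

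In tumor-bearing mice 4 of 12 tested genes with the ISRE letters and 7 of 15 without them were called higher in endothelial cells (8.13% of all genes tested). The median log2 differences were 1.09 and 1.02. In tumor-free mice 7 of 12 with and 7 of 15 without the letters were called higher (18.2% of all genes tested), with medians of 1.25 and 0.98. These counts are a description of the windows searched, with no test.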
